A study of Homo sapiens with 11 samples.

Results

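UBB and UBBP4 are a ubiquitin gene and a ubiquitin pseudogene on the same human chromosome, and they were 2 of the 35303 rows of the count file. They were chosen by their counts and CPM in these same libraries and taken from the file by symbol, so every value of theirs below is a description and carries no test. UBBP4 was at 3.10 and 3.41 CPM (counts for each 1 M counts of a library) in 2 of the 3 libraries of cells given HIV-1 with lipoteichoic acid, and at 0.350 to 0.619 CPM in the other 7 libraries. UBB was at 489 to 786 CPM in all 9. Both passed the filter on low counts that left 16117 genes.

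RNA-seq libraries came from the wild-type line LX-2, made from immortalised stellate cells of human liver, the cell type that lays down scar matrix there. In the HIV-1+LTA group (3 libraries) the cells received HIV-1 BaL, a laboratory strain of the virus, at a multiplicity of infection of 0.1, together with LTA (lipoteichoic acid, which sits in the walls of gram-positive bacteria) at 1 µg/ml. The HIV-1 group (3 libraries) received the virus alone, and the PBS group (3 libraries) received phosphate-buffered saline. All were taken at 24 h, and no group had LTA alone, so what LTA does without the virus was not measured. The series is about the interleukin-8 response of stellate cells to products of gram-positive bacteria in the presence of HIV-1. The replicate number is also the labels' batch number, so libraries with the same number were compared with each other. The labels do not say whether replicates were separate cultures, so a p-value measures only how these libraries vary, which can be technical.

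Library totals ran from 50.6 to 90.6 M counts. The 3 libraries of replicate 3 stood apart from the others: VIM, the intermediate filament vimentin, was at 2451 to 3128 CPM there and at 539 to 793 CPM in the other 6, and LOX, a collagen cross-linking enzyme, was at 948 to 1236 against 122 to 193 CPM. Other stellate cell genes went the other way or overlapped: TIMP1, an inhibitor of matrix proteases, was at 99.8 to 157 CPM in replicate 3 and 201 to 259 CPM in the other 6, and the collagen gene COL1A1 was at 794 to 1000 against 875 to 1426 CPM. Of 12 stellate cell markers, 10 averaged at least 1 CPM, with the retinol-esterifying enzyme LRAT (3 counts in all libraries together) and desmin (DES, at most 0.259 CPM) near 0. One of 8 hepatocyte markers and 1 of 8 leukocyte and endothelial markers reached that level, and their summed levels stayed at or below 2.20 and 3.12 CPM in every library.

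Ubiquitin is a small protein that is joined to other proteins through a cascade of activating (E1), conjugating (E2) and ligating enzymes. Chains of it send proteins to the 26S proteasome for breakdown, and other chain types assemble signalling complexes, including those that switch on NF-kB. UBB encodes head-to-tail repeats of ubiquitin that are cut apart after translation, and it is induced in many kinds of stress. RPS27A encodes 1 ubiquitin fused to a ribosomal protein. UBBP4 is a copy of the repeat gene that is annotated as a transcribed unprocessed pseudogene. In human cell lines it has been reported to encode ubiquitin variants.

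On GRCh37, the build that matches the authors' hg19, UBB (ENSG00000170315) lies on the + strand at chr17:16284112-16286059, with 2 exons and a transcript of 933 bases. Its coding region of 690 bases holds 3 ubiquitin repeats. UBBP4 (ENSG00000263563) lies on the + strand of the same chromosome at chr17:21730699-21731615, as a single exon of 917 bases, and holds 4 repeats of 228, 228, 227 and 234 bases. The third repeat is 1 base short of 228, and 917 is not a multiple of 3, with a remainder of 2. The first 2 repeats of UBBP4 are shown beside the UBB repeats closest to them, because they show where a read can and cannot be assigned to either gene. The sequences are from the GRCh37 genome, 5′ to 3′, and capitals mark the bases that differ between the members of each pair.

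The first pair differs at 20 of 228 bases. UBB repeat 1 is at chr17:16285222-16285449 and UBBP4 repeat 1 at chr17:21730699-21730926, both on the + strand.
UBBP4 repeat 1: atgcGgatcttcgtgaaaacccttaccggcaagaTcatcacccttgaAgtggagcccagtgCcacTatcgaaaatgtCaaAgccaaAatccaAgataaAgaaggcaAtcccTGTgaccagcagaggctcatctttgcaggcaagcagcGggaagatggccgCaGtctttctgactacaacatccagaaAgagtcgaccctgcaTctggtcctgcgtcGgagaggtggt
UBB repeat 1: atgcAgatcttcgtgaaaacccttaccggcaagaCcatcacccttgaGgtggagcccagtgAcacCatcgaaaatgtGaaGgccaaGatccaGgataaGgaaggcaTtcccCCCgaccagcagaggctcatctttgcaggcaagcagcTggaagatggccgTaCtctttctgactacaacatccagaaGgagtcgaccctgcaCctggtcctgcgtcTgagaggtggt

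The second pair differs at 5 of 228 bases. UBB repeat 2 is at chr17:16285450-16285677 and UBBP4 repeat 2 at chr17:21730927-21731154, both on the + strand.
UBBP4 repeat 2: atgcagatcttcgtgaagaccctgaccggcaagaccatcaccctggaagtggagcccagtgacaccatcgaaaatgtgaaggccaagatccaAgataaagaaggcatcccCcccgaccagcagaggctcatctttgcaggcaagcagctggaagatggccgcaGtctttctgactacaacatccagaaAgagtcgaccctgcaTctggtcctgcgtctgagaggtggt
UBB repeat 2: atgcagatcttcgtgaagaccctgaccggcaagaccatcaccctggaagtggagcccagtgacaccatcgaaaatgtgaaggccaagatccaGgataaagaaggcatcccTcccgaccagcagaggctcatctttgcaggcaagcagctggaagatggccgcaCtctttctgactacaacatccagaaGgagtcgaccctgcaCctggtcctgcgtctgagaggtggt

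The capitals are spread along the first pair and leave long identical stretches in the second. Against its closest UBB repeat, UBBP4 repeat 1 had 91.2% identical bases, repeat 2 had 97.8%, repeat 3 had 97.8% with 1 base missing, and repeat 4 had 95.2%. The repeats of UBB were 94.7% to 96.5% identical to each other, so the middle repeats of UBBP4 were closer to UBB repeat 2 than the UBB repeats were to one another.

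**Figure D1:**
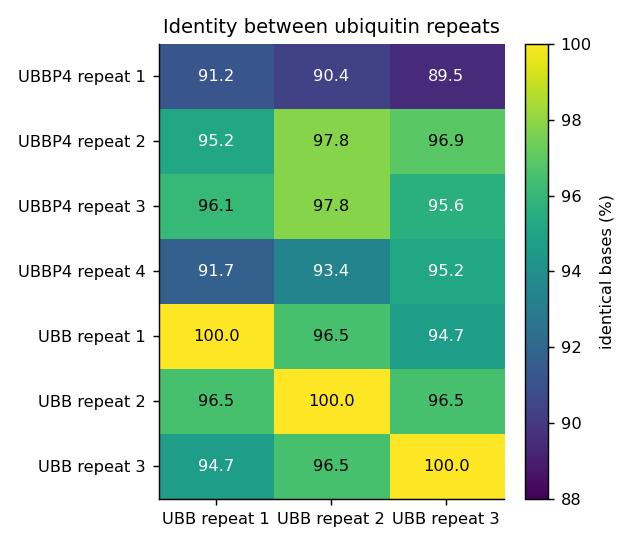
Percentage of identical bases between each repeat of UBBP4 and UBB (rows) and each repeat of UBB (columns), after alignment. UBBP4 repeats 2 and 3 reach 97.8% with UBB repeat 2, and UBBP4 repeat 1 is lowest, at 89.5% to 91.2%.

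How much of UBBP4 a read can tell from UBB depends on its length. Of the 882 stretches of 36 bases along the UBBP4 exon, 35.6% are found letter for letter in UBB. At 50 bases the share is 26.5%, at 75 bases 13.2% and at 100 bases 4.40%. At 150 bases it is 0 of 768. No stretch of these lengths matched exactly anywhere else in the genome without also matching UBB. The read length, the strand setting and the handling of reads with several best matches are not given in the sources used here, so the counts of both genes are uncertain to that extent. An antisense non-coding gene, ENSG00000265401, overlaps UBB on the opposite strand and has no row in the count file.

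UBBP4 had 208, 242 and 30 counts in HIV-1+LTA replicates 1, 2 and 3, against 30, 21 and 25 counts in the HIV-1 libraries and 44, 33 and 19 counts in the PBS libraries. Replicates 1 and 2 of HIV-1+LTA were high, and the third was near the level of the other groups. In CPM scaled by TMM, a factor that corrects for composition, UBBP4 was at 3.10, 3.41 and 0.619 in HIV-1+LTA. It was at 0.525, 0.350 and 0.433 CPM in HIV-1 and at 0.470, 0.408 and 0.380 CPM in PBS.

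The exact 95% binomial intervals, which cover counting error only, were 2.69 to 3.55 and 2.99 to 3.87 CPM for HIV-1+LTA replicates 1 and 2. For HIV-1+LTA replicate 3 the interval was 0.418 to 0.883 CPM, which overlaps the 0.355 to 0.750 CPM of HIV-1 replicate 1 and the 0.341 to 0.631 CPM of PBS replicate 1. The HIV-1+LTA libraries did not overlap with the HIV-1 libraries or with the PBS libraries, and HIV-1 and PBS overlapped. Of the 16117 genes, 2.12% were higher in HIV-1+LTA than in HIV-1 without overlap, and 2.06% were higher than in PBS. The group means were 2.37 ± 1.53 CPM in HIV-1+LTA, 0.436 ± 0.0877 CPM in HIV-1 and 0.419 ± 0.0460 CPM in PBS (SD, n = 3 each). In these bulk libraries, more cells with UBBP4 RNA and more UBBP4 RNA per cell cannot be told apart.

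**Figure D2:**
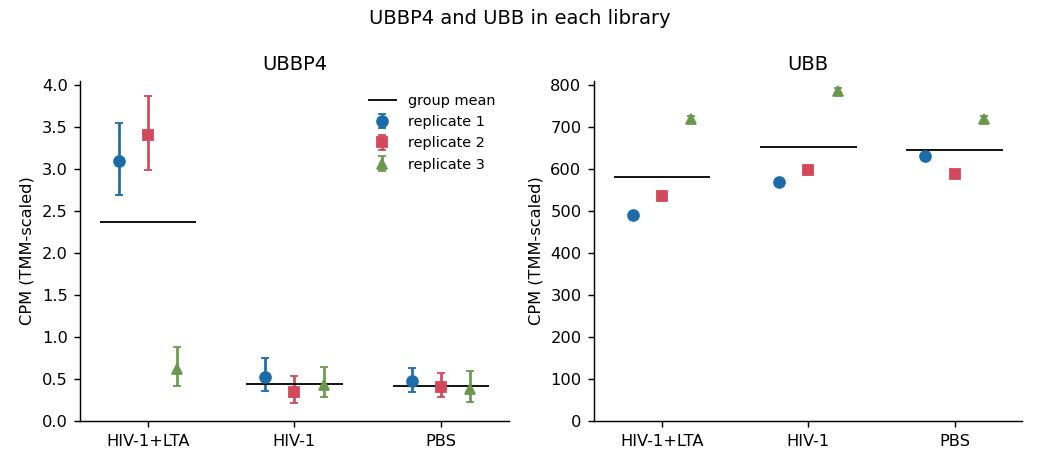
Level of UBBP4 (left) and UBB (right) in each library, in TMM-scaled CPM; colours and shapes mark the replicate number, vertical bars the exact 95% binomial counting interval and black lines the group mean. UBBP4 is at 3.10 and 3.41 CPM in HIV-1+LTA replicates 1 and 2 and at or below 0.619 CPM in the other 7 libraries, while replicate 3 gives the highest UBB value in each group.

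Within replicate numbers, UBBP4 differed between HIV-1+LTA and HIV-1 by 2.49, 3.17 and 0.49 on the log2 CPM scale, which corresponds to CPM ratios of 5.89, 9.74 and 1.43. Against PBS the log2 differences were 2.64, 2.97 and 0.66. All 3 had the same sign in both comparisons, as 16.7% and 17.5% of genes did in this direction, and the third was far smaller than the first 2. HIV-1 differed from PBS by 0.15, -0.20 and 0.17, with no common sign. The fit across all genes with the replicate number as a block (edgeR) gave log2 fold changes of 2.31 (SE 0.413) when HIV-1+LTA was set against HIV-1, 2.43 (SE 0.404) when it was set against PBS, and 0.12 (SE 0.471) for HIV-1 against PBS. Without the HIV-1+LTA library of replicate 3 the first 2 values were 2.87 and 2.92 (edgeR), and without that of replicate 2 they were 1.84 and 1.93. Without all 3 libraries of replicate 3 they were 2.90 and 2.89.

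The authors' deposited table, which matches a DESeq2 fit of HIV-1+LTA against PBS with batch as a term for all 19990 genes within a log2 difference of 0.01, lists UBBP4 with a log2 fold change of 2.35 and a standard error of 0.417. It gives UBBP4 no adjusted p, as for 7751 genes in all. In the authors' deposited table UBBP4 has the lowest unadjusted p of the 19990 genes, and UBB has rank 964. These ranks rest on the same libraries by which both genes were chosen, so they are a description and no test.

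To place the pattern of UBBP4 among all genes, the lower of HIV-1+LTA replicates 1 and 2 was divided by the highest of the other 7 libraries, with 0.1 CPM added, for the 12752 genes at 1 CPM or more in both of those replicates. UBBP4 passed this minimum only in those 2 libraries. The ratio was 4.45 for UBBP4. The next highest were 1.39 for C2, a complement component, and 1.36 for PCOLCE-AS1, a non-coding RNA, and 503 genes were above 1. This ratio was chosen after the values of UBBP4 had been seen and restates the values by which UBBP4 was chosen, so it is a description.

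**Figure D3:**
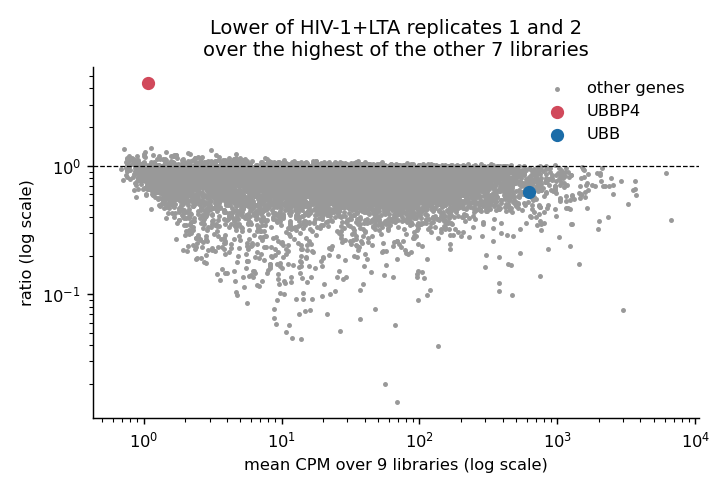
Each point is a gene: its mean CPM over the 9 libraries (x axis, log scale) and the lower of HIV-1+LTA replicates 1 and 2 over the highest of the other 7 libraries, with 0.1 CPM added (y axis, log scale). UBBP4 is at 4.45 and the next gene at 1.39, while UBB lies below 1.

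The spread among the HIV-1+LTA libraries was also set beside that of other genes. With 0.1 CPM added to each value, the highest level of UBBP4 was 4.88 times the lowest in HIV-1+LTA, 1.39 times in HIV-1 and 1.19 times in PBS. In HIV-1+LTA, 323 genes with a highest level of at least 5 CPM were spread as widely or more widely, and in all 323 replicate 3 was the highest or the lowest library. Of these, 275 were spread at least as widely in PBS. UBBP4 itself, with a highest level of 3.41 CPM, lies below that minimum, so the count covers only more abundant genes and not those at its level. Among the most abundant were SPOCK1, a matrix proteoglycan, LOX, POLR3G, a subunit of RNA polymerase III, and EFEMP1, a matrix glycoprotein. SPOCK1, for example, was at 243, 272 and 1675 CPM in HIV-1+LTA replicates 1, 2 and 3, and at 255, 284 and 1761 CPM in PBS. SPOCK1 was thus high in replicate 3 of both groups, while UBBP4 was low in HIV-1+LTA replicate 3 and nearly level within HIV-1 and within PBS.

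UBB, the gene with the matching repeats, was abundant, with small differences between the groups. It had 32869, 38039 and 34823 counts in HIV-1+LTA replicates 1, 2 and 3, against 32487, 35761 and 45408 counts in HIV-1 and 58901, 47473 and 35927 counts in PBS. Scaled by TMM these were 489, 536 and 718 CPM in HIV-1+LTA, 569, 596 and 786 CPM in HIV-1, and 629, 586 and 719 CPM in PBS. The groups overlapped, and replicate 3 was the highest library of each. The means were 581 ± 121 CPM in HIV-1+LTA, 650 ± 118 CPM in HIV-1 and 645 ± 67.5 CPM in PBS (SD, n = 3 each).

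Within replicate numbers, UBB was lower in HIV-1+LTA than in HIV-1 in all 3, by log2 differences of -0.22, -0.15 and -0.13. Of all genes tested, 17.1% were lower in all 3 replicate numbers of this comparison. Against PBS the differences were -0.36, -0.13 and -0.0003, so that replicate 3 was level, and 16.3% of genes were lower in all 3. HIV-1 differed from PBS by -0.14, 0.02 and 0.13. The fitted log2 fold changes were -0.17 (SE 0.0658) when HIV-1+LTA was set against HIV-1, -0.17 (SE 0.0658) when it was set against PBS and 0.0005 (SE 0.0658) for HIV-1 against PBS. These comparisons share libraries, the HIV-1+LTA set in one pair and the PBS set in another. Without the 3 libraries of replicate 3 the fold changes of UBB were -0.18, -0.25 and -0.06 in the same order, and without the 3 libraries of replicate 1 they were -0.13, -0.06 and 0.08. Without HIV-1+LTA replicate 1 alone the fold changes of UBB for HIV-1+LTA were -0.10 against both HIV-1 and PBS, and without PBS replicate 1 the value against PBS was -0.08. With the counts of UBBP4 added to those of UBB, the fold changes of UBB were -0.16, -0.16 and 0.0006.

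UBBP4 was a small share of the reads given to both genes together. It took 0.629% in HIV-1+LTA replicate 1 (exact 95% binomial interval 0.546% to 0.720%), 0.632% in replicate 2 (0.555% to 0.717%) and 0.0861% in replicate 3 (0.0581% to 0.123%). In HIV-1 the shares were 0.0923% (0.0623% to 0.132%), 0.0587% (0.0363% to 0.0897%) and 0.0550% (0.0356% to 0.0812%). In PBS they were 0.0746% (0.0542% to 0.100%), 0.0695% (0.0478% to 0.0975%) and 0.0529% (0.0318% to 0.0825%). The intervals of HIV-1+LTA replicates 1 and 2 lay above those of the other 7 libraries. UBB itself was lower in HIV-1+LTA than in HIV-1 in all 3 replicate numbers, including replicate 3, where UBBP4 was not high. Whether read assignment between the 2 genes takes part in this was not tested.

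Per kilobase of transcript, UBB averaged 623 ± 130 CPM in HIV-1+LTA, 697 ± 126 CPM in HIV-1 and 691 ± 72.3 CPM in PBS (SD, n = 3 each). On the same scale UBBP4 averaged 2.59 ± 1.67 in HIV-1+LTA, 0.476 ± 0.0956 in HIV-1 and 0.457 ± 0.0502 in PBS. RPS27A stood at 822, 895 and 951 CPM per kilobase in HIV-1+LTA, HIV-1 and PBS. The libraries of UBB and RPS27A overlapped in every group.

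RPS27A, whose partner is a protein of the small ribosomal subunit, was at 589, 438 and 910 CPM in HIV-1+LTA, 582, 580 and 946 CPM in HIV-1, and 588, 558 and 1094 CPM in PBS. RPS27A thus had its lowest level in HIV-1+LTA replicate 2, the library in which UBBP4 was highest.

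By the edgeR quasi-likelihood test with Benjamini-Hochberg adjustment, RPS27A had a log2 fold change of -0.20 (SE 0.0791, adjusted p = 0.243) for HIV-1+LTA against PBS. RPS27A did not pass the threshold of 0.05 in any of the 3 comparisons.

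**Figure D4:**
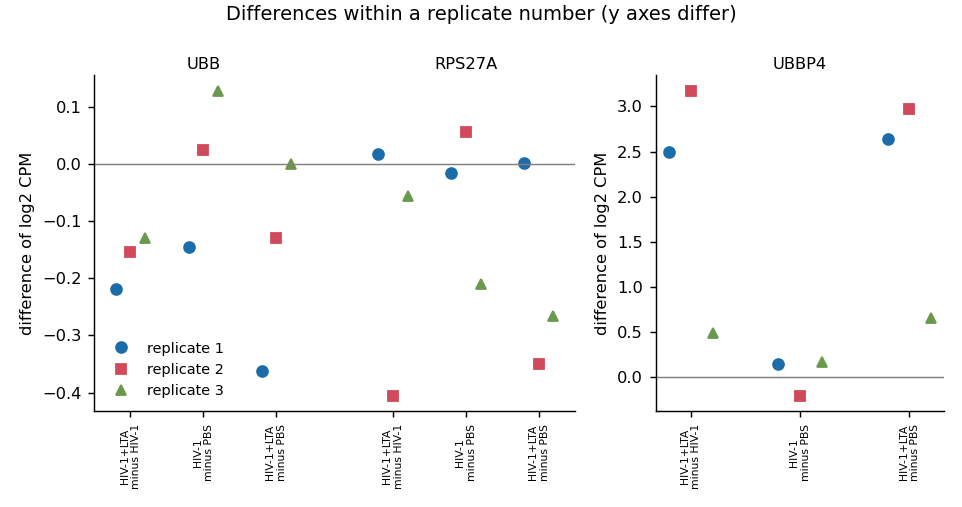
Differences of log2 CPM between groups, taken within each replicate number, for UBB and RPS27A (left) and UBBP4 (right, on a wider axis); colours and shapes mark the replicate number. UBB is below 0 in all 3 replicate numbers for HIV-1+LTA minus HIV-1, at -0.22, -0.15 and -0.13, while UBBP4 reaches 2.49 and 3.17 in replicates 1 and 2 and 0.49 in replicate 3.

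Other ubiquitin pseudogenes had 15 rows, of which 12 had any count and 9 had at least 10 in total. The most abundant was RPS27AP16, at 2.62, 2.86 and 5.57 CPM in HIV-1+LTA, 2.56, 2.94 and 5.50 CPM in HIV-1, and 3.67, 2.93 and 6.10 CPM in PBS. RPS27AP16 was high in replicate 3 in every group, as RPS27A was. RPS27AP5 averaged 0.311 ± 0.163 CPM in HIV-1+LTA, 0.458 ± 0.188 CPM in HIV-1 and 0.487 ± 0.297 CPM in PBS (SD, n = 3 each). RPS27AP12 averaged 0.0446 ± 0.0162, 0.119 ± 0.0867 and 0.0985 ± 0.0918 CPM in the same order. None of these 3 had its highest values in HIV-1+LTA replicates 1 and 2.

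The genes with the profiles most like that of UBB, by the root-mean-square difference of log2 CPM around each gene's mean over the 9 libraries among 12950 genes, were IDH3B (0.0713), DIS3L2 (0.0716), ZNF749 (0.0723), STK35 (0.0773) and NUDT16L1 (0.0787). UBB itself varied by 0.209 around its mean. IDH3B, a subunit of mitochondrial isocitrate dehydrogenase, was at 76.9, 74.7 and 98.5 CPM in HIV-1+LTA, 83.7, 81.7 and 106 CPM in HIV-1, and 85.6, 84.6 and 108 CPM in PBS. IDH3B was thus highest in replicate 3 of each group, as UBB was.

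For UBBP4 the closest profiles were far less close: KLRK1-AS1 (0.786), RIPOR3 (0.810), TRANK1 (0.835), AKR1C3 (0.835) and MYO7A (0.849), against 1.18 for UBBP4 around its own mean. UBBP4 reached the minimum mean of 1 CPM only through HIV-1+LTA replicates 1 and 2. Genes that stayed at 0.350 to 0.619 CPM, its level in the other libraries, were left out, so closer profiles among them would not be seen. KLRK1-AS1, a non-coding RNA, was at 2.31, 3.04 and 1.73 CPM in HIV-1+LTA, 1.63, 0.884 and 0.779 CPM in HIV-1, and 1.93, 1.48 and 0.860 CPM in PBS. RIPOR3 was at 2.08, 3.89 and 0.743 CPM in HIV-1+LTA, 1.47, 0.917 and 0.744 CPM in HIV-1, and 2.20, 1.47 and 0.700 CPM in PBS. Both had their highest value in HIV-1+LTA replicate 2. KLRK1-AS1 was at 2.31 CPM in HIV-1+LTA replicate 1, against 1.93 CPM in PBS replicate 1, a narrower gap than that of UBBP4. RIPOR3 had no such gap, as its 2.08 CPM in HIV-1+LTA replicate 1 lay below the 2.20 CPM of PBS replicate 1.

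The genes next to each member were examined for the same pattern. The nearest measured genes to UBB were CENPV, PIGL, TRPV2 and SNHG29, the last 3 with log2 fold changes of -0.01, -0.12 and 0.09 for HIV-1+LTA against HIV-1. CENPV, a centromere protein gene 27142 bases away, was at 4.55, 3.03 and 3.92 CPM in HIV-1+LTA, 4.90, 5.47 and 4.48 CPM in HIV-1, and 4.18, 3.87 and 4.84 CPM in PBS. Its log2 fold change for HIV-1+LTA against HIV-1 was -0.38 (SE 0.157, edgeR adjusted p = 0.281). Beside UBBP4 lay the non-coding gene LINC02693, 252918 bases away, with a log2 fold change of -0.13 (SE 0.0523, edgeR adjusted p = 0.266), and on the other side WSB1, a subunit of a ubiquitin ligase, 3889487 bases away, with 0.04 (SE 0.0509, edgeR adjusted p = 0.758). The ribosomal protein pseudogenes RPL21P120 and RPL34P31 were at or below 0.0748 CPM in every library. LINC02693 was at 83.4, 80.4 and 63.5 CPM in HIV-1+LTA and 86.5, 88.4 and 73.6 CPM in HIV-1, so the level was not high in HIV-1+LTA replicates 1 and 2.

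ChIP-seq peaks were called for HIV-1-treated cells, in a list of 166 rows and 154 distinct regions, with the antibody not named in the labels. The labels of this ChIP library name the cells Lx2 in the title and Lx5 as the cell line, so which cells the peaks come from is uncertain. The nearest peak was 8.20 Mb from UBB and 13.7 Mb from UBBP4. For RPS27A it was 31.5 Mb away. No peak therefore lay at any of these 3 genes.

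The rest of the ubiquitin system was followed through 8 lists with 178 tested genes. No gene passed an adjusted p of 0.05 in the edgeR test with the replicate block in any comparison (0.0% of 16117 genes). At an unadjusted p below 0.05 there were 2486 genes (15.4%) for HIV-1+LTA against HIV-1, 678 (4.21%) for HIV-1 against PBS and 2709 (16.8%) for HIV-1+LTA against PBS. DESeq2 with the same block and genes with at least 10 counts called 244 genes (1.82% of those given an adjusted p), 3 (0.015%) and 236 (1.93%) in those comparisons. Of the 178 ubiquitin system genes, UBB included, it called 1, 0 and 4. UBD and ATXN3L, the other 2 genes of the lists, were below the filter on low counts. Scaling by library totals moves the median of all genes by less than 0.1, to 0.03, 0.03 and 0.06 in the 3 comparisons.

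The 26S proteasome, which breaks down proteins tagged by ubiquitin, was mostly below 0 in both comparisons with LTA. Of its 36 subunit genes, 35 had a log2 fold change below 0 for HIV-1+LTA against HIV-1, with a median of -0.12, where 51.1% of all genes were below 0 and the median was -0.004. For HIV-1+LTA against PBS 34 of 36 were below 0 with a median of -0.13, beside 49.6% of all genes and a median of 0.002. For HIV-1 against PBS 23 of 36 were below 0, beside 50.8% of all genes, and the median was -0.01. Scaled by library totals, 31, 12 and 28 of 36 were below 0 for HIV-1+LTA against HIV-1, HIV-1 against PBS and HIV-1+LTA against PBS. The medians were -0.09, 0.02 and -0.07, so the sign for HIV-1 against PBS turned. The medians of all genes at that scaling were 0.03, 0.03 and 0.06, and the share of all genes below 0 was not computed there. The median of the within-replicate differences between HIV-1+LTA and HIV-1 was -0.03 in replicate 1, -0.23 in replicate 2 and -0.09 in replicate 3.

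At an unadjusted p below 0.05, 16 of the 36 were lower in HIV-1+LTA than in HIV-1, beside 7.32% of all genes, and 20 were lower than in PBS, beside 8.13% of all genes. One subunit passed DESeq2's adjusted threshold in both: PSMD2, a scaffold of the proteasome's base, with a log2 fold change of -0.29 (SE 0.0690, adjusted p = 0.00624) against HIV-1 and -0.32 (SE 0.0690, adjusted p = 0.00503) against PBS. Within replicates 1, 2 and 3 the log2 differences of PSMD2 were -0.09, -0.42 and -0.37 against HIV-1. The DESeq2 call against HIV-1 held in 5 of the 9 fits that left out 1 library, and the adjusted p ran from 6.64e-12 to 0.757. It was lost without HIV-1 replicate 2 or 3, or without HIV-1+LTA replicate 2 or 3. Against PBS it also held in 5 of 9, and it was lost without PBS replicate 2 or 3 or HIV-1+LTA replicate 2 or 3, with an adjusted p of up to 0.948.

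**Figure D5:**
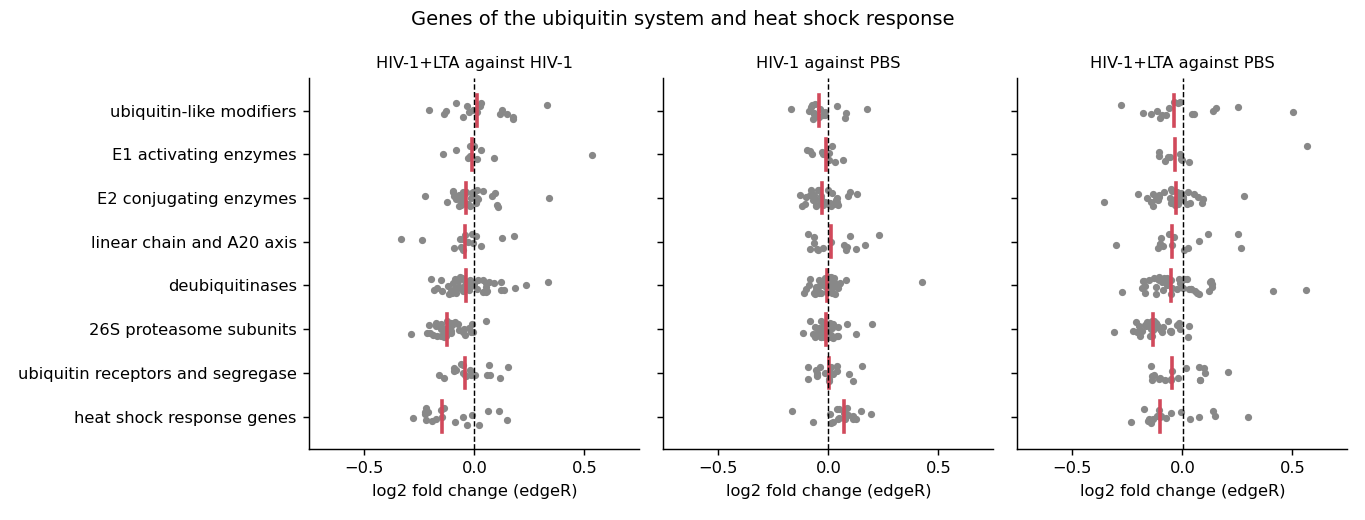
Log2 fold changes from the edgeR fit for each tested gene of 7 ubiquitin system lists and of the heat shock genes (grey points) in each comparison, with the list's median (red bar) and the median of all genes (dashed line). The proteasome subunits lie below 0 in 35 of 36 cases when HIV-1+LTA is set against HIV-1, and in 34 of 36 against PBS, beside 51.1% and 49.6% of all genes. When counts are scaled by library totals the numbers are 31 and 28, and the medians of all genes are 0.03 and 0.06.

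Ubiquitin-like modifiers had medians of 0.01 relative to HIV-1 and -0.04 relative to PBS in HIV-1+LTA, over 17 tested members. The medians of all genes were -0.004 and 0.002. Below 0 were 8 (47.1%) and 11 (64.7%) of the 17, beside 51.1% and 49.6% of all genes. Scaled by library totals the median of the modifiers was 0.02 relative to PBS, beside 0.06 for all genes. Against PBS, DESeq2 called 2 of the modifiers. ISG15, the interferon-induced modifier, was higher, at 7.83, 9.54 and 9.67 CPM in HIV-1+LTA and 5.49, 7.19 and 6.42 CPM in PBS, with a log2 fold change of 0.49 (SE 0.125, adjusted p = 0.0195). UBL3 was lower, with -0.29 (SE 0.0858, adjusted p = 0.0441). The ISG15 call held in 2 of the 9 fits that left out 1 library, those without HIV-1 replicate 1 or HIV-1+LTA replicate 1. That of UBL3 held in 2, those without PBS replicate 1 or HIV-1+LTA replicate 1, and the highest adjusted p was 1.00 for both. In the comparison with HIV-1, ISG15 had a log2 fold change of 0.33 (edgeR SE 0.102, adjusted p = 0.206).

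The activating enzymes gave medians of -0.01 relative to HIV-1 and -0.03 relative to PBS in HIV-1+LTA over 10 genes. Below 0 were 6 (60.0%) and 8 (80.0%) of the 10, beside 51.1% and 49.6% of all genes. UBA7, the E1 of the ISG15 pathway, was at 43.1, 69.5 and 32.7 CPM in HIV-1+LTA and 44.2, 36.3 and 20.6 CPM in HIV-1, with a log2 fold change of 0.54 (SE 0.150, edgeR adjusted p = 0.187). UBE2L6, the E2 of that pathway, had 0.34 (SE 0.105, edgeR adjusted p = 0.207) over values of 39.1, 48.0 and 53.7 CPM in HIV-1+LTA and 39.9, 32.0 and 39.9 CPM in HIV-1. USP18, which removes ISG15 from proteins, was at 1.79, 2.09 and 3.03 CPM in HIV-1+LTA, 1.63, 1.65 and 3.18 CPM in HIV-1, and 1.30, 1.04 and 2.56 CPM in PBS. The log2 fold change of USP18 when HIV-1+LTA was set against HIV-1 was 0.14 (SE 0.175), beside 0.42 (SE 0.178, edgeR adjusted p = 0.946) for HIV-1 against PBS and 0.56 (SE 0.176, edgeR adjusted p = 0.206) for HIV-1+LTA against PBS. In replicate 1 both UBA7 and UBE2L6 were level between HIV-1+LTA and HIV-1, with log2 differences of -0.04 and -0.03.

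In HIV-1+LTA, 51.1% of all genes were below 0 relative to HIV-1 and 49.6% relative to PBS. Of 35 tested E2 enzymes, 23 (65.7%) and 25 (71.4%) were below 0, with medians of -0.04 and -0.03, and none passed in either tool. Of 44 tested deubiquitinases, 26 (59.1%) and 28 (63.6%) were below 0, with medians of -0.04 and -0.05, and none passed. Of 15 genes of linear chain assembly and the A20 axis, which tune NF-kB signalling, 11 (73.3%) and 9 (60.0%) were below 0. In this list BIRC2, a ubiquitin ligase that inhibits cell death, was called lower by DESeq2 against PBS, at -0.31 (SE 0.0925, adjusted p = 0.0446), and this call held in 2 of 9 fits, those without PBS replicate 1 or HIV-1+LTA replicate 1 (highest adjusted p 1.00). TNFAIP3, which encodes A20, had -0.33 (SE 0.122, edgeR adjusted p = 0.252) for HIV-1+LTA against HIV-1, over within-replicate differences of 0.04, -0.23 and -0.72. Ubiquitin receptors and the segregase p97 with its partners had medians of -0.04 and -0.05 over 18 genes, and none passed. Scaled by library totals, the medians of the E1, E2, linear chain, deubiquitinase and receptor lists in HIV-1+LTA relative to PBS were 0.03, 0.03, 0.01, 0.01 and 0.01. Their sign turned, but they stayed below the median of all genes at that scaling, 0.06. The median of the E1 list relative to HIV-1 also turned, to 0.02, beside 0.03 for all genes.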

How the data were processed

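RNA-seq of 9 libraries was used, with ChIP-seq peak positions of HIV-1-treated cells. Per the submitters' processing notes, the tools were fastp, STAR, HTSeq and SAMtools for RNA, and Bowtie2, bedtools and deepTools for ChIP, on hg19; DESeq2 and MACS are named in the series' design text. Tool versions and the multimapping and strand settings are not given in the sources used here. Raw counts by gene symbol are what the authors deposited. A second deposited table, from DESeq2, holds a mean normalised signal, a log2 fold change, its log2 standard error, a Wald score, and p-values with and without adjustment, and the table does not name its comparison. Library totals of 50.6 to 90.6 M counts set the precision, and exact binomial intervals for UBBP4 stand beside its values.

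The main test was edgeR 4.0.16 (R 4.3.3) on raw counts: quasi-likelihood, TMM scaling, filterByExpr, 1 fit over the 9 libraries with the replicate number as a block, Benjamini-Hochberg adjustment over all genes and a threshold of 0.05. The labels give each replicate number as a batch, so the numbers pair libraries. In the check of this, deviations from group means correlated at 0.705 to 0.917 within a number and at -0.836 to 0.764 between numbers. The negative values all involved replicate 3. Between replicates 1 and 2 the values overlapped with those within each, so the check does not show that these 2 numbers pair libraries. Tried beside it were limma-voom (limma 3.58.1), DESeq2 1.42.0, other scalings and filters, no block, and leaving out libraries; DESeq2 fits that left out libraries were added after the data were seen. Log2 CPM used a prior count of 2. Ratios of CPM between the libraries of a group, and between the high libraries and the rest, had 0.1 CPM added. The CPM ratios within replicate numbers had nothing added. The edgeR fit was also run on simulated counts, whose outcome is not reported here and carries no weight for these results. No pair of libraries was a copy: the lowest chi-square per degree of freedom was 3.79. Sequences came from the GRCh37 genome with GENCODE v44lift37 annotation, searched with blastn 2.17.0.

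The members and the 12 gene lists were chosen with earlier results of these data known. The named genes were ubiquitin coding genes, the 3 most abundant other ubiquitin pseudogenes, the 5 profiles closest to each member, the nearest 2 measured genes on each side, and of each list up to 4 that passed a test, otherwise up to 2 with the lowest p. The genes as spread as UBBP4 were counted at a highest level of at least 5 CPM and the most abundant named; some genes under these rules are not reported here.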

Additional observations from a re-analysis of the deposited data

How the results depend on the processing

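UBBP4 stayed above 0 in HIV-1+LTA relative to HIV-1 and relative to PBS in all 31 alternatives of each, and UBB stayed below 0 in all 32 of each. Leaving out libraries in edgeR and DESeq2 fits with the replicate block (the DESeq2 ones were added after the data were seen) gave UBBP4 log2 fold changes of 1.69 to 2.91 against HIV-1 and 1.81 to 2.92 against PBS, and -0.38 to 0.49 for HIV-1 against PBS. For UBB the ranges were -0.22 to -0.10, -0.25 to -0.06 and -0.08 to 0.09.

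The number of genes called was less stable. In the order HIV-1+LTA against HIV-1, HIV-1 against PBS and HIV-1+LTA against PBS it was 0, 0 and 0 in the edgeR fit with the replicate block, 244, 3 and 236 with DESeq2, and 1016, 30 and 1045 when edgeR tested all genes with any count. With only the 6 libraries compared it was 2 for HIV-1 against PBS. For the 2 comparisons of HIV-1+LTA, DESeq2 called 1 and 4 of 178 ubiquitin system genes, beside 1.82% and 1.93% of all genes given an adjusted p. The edgeR fit of all genes with any count called 11 and 17 of 180, beside 1016 and 1045 of 25265 genes. Leaving out libraries gave 0 to 2390, 0 to 46 and 0 to 2648 genes, and 0 to 42, 0 to 0 and 0 to 60 ubiquitin system genes. The highest edgeR counts, 2390 and 2648 of 16342 genes, came without HIV-1+LTA replicate 1, and the cause was not tested. In that fit 42 and 53 of the 178 ubiquitin system genes were called. Without the same library, DESeq2 called 2419 of 12867 genes against PBS, with 60 of the 178 among them. The fit without the replicate block called 0 genes in each comparison, with 153, 42 and 141 at an unadjusted p below 0.05, and limma-voom called 0, with 2578, 725 and 2813. In HIV-1 and PBS, UBBP4 rests on 19 to 44 counts per library, and its log2 fold change between them was 0.12 with an SE of 0.471.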

Other observations

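Heat shock genes, whose products refold damaged proteins, were mostly below 0 in both comparisons of HIV-1+LTA. Of 19 tested, 15 had a log2 fold change below 0 for HIV-1+LTA against HIV-1, with a median of -0.15, beside 51.1% of all genes, and 14 were below 0 against PBS, with a median of -0.10, beside 49.6% of all genes. For HIV-1 against PBS 2 were below 0, beside 50.8% of all genes, and the median was 0.07. Scaled by library totals these medians were -0.12, -0.04 and 0.10. DESeq2 with the replicate block, which called 1.82% of all genes against HIV-1 and 1.93% against PBS, called HSP90AB1 lower against HIV-1 at -0.28 (SE 0.0701, adjusted p = 0.0104) and HSPH1 lower at -0.22 (SE 0.0641, adjusted p = 0.0440). Against PBS it called HSP90AB1 lower at -0.24 (SE 0.0701, adjusted p = 0.0413) and HSPB1, a small heat shock protein, higher at 0.29 (SE 0.0726, adjusted p = 0.0195). Leaving out 1 library kept these calls in 5, 2, 2 and 3 of 9 fits, and each was lost without HIV-1+LTA replicate 2 or 3, with adjusted p of up to 1.00. The edgeR test called none of the 19.

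Over all 36 pairs of libraries, rows of the count file at 1 CPM or more in both libraries of a pair were searched. In 3 such rows both libraries were at least 3-fold above the other 7, with 0.1 CPM added, and UBBP4 was one of them. UBBP4 passed the minimum only in HIV-1+LTA replicates 1 and 2, where it was high. Rows at lower levels were left out, so the count does not cover them. This search and its genes were chosen after the values had been seen. MRPL23, a protein of the mitochondrial ribosome, had 6, 9 and 7 counts in HIV-1+LTA replicates 1 to 3, 7, 414 and 423 counts in HIV-1, and 5, 3 and 8 counts in PBS. RNU6-7, a copy of the U6 small nuclear RNA gene, had 1239 counts in HIV-1+LTA replicate 2 and 645 in HIV-1 replicate 1, with 3 to 34 counts in the other 7 libraries. The search takes 2 libraries at a time and each group has 3, so no row that it finds could match a whole group.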
